A study of Homo sapiens with 4 samples.

Results

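A set of 10 genes of the TAL1 complex and its partner transcription factors were described in Jurkat cells, a human T-cell acute lymphoblastic leukemia (T-ALL) line, after knockdown of LEF1. The genes were TAL1, LYL1, TCF3, TCF12, LMO1, LMO2, LDB1, GATA3, RUNX1 and MYB, taken by symbol, and every probe set annotated to them was used. A probe set is a group of short probes on the array that reads 1 transcript region. Of the 54613 probe sets tested, 33 carried the symbol of 1 of these genes alone and covered 9 of the 10. All 13 RUNX1 probe sets were annotated to a pair of long noncoding RNA loci as well, LOC100506403 and LOC101928269, so they are described apart as shared RUNX1 probe sets.

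Expression was read on 4 HG-U133 Plus 2.0 arrays, from 2 samples of cells transfected with a pool of LEF1 siRNAs (siLEF1) and 2 transfected with a non-targeting pool (siNT). Both pools were used at 100 nM and cells were harvested 24 h later. All 4 samples come from 1 cell line that carries the leukemic changes of its donor tumor, and non-transfected cells were not analysed here. The labels call the replicates biological without saying whether they were separate cultures, so p-values measure the spread between these samples only.

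TAL1 is a basic helix-loop-helix (bHLH) protein that binds E-box sites in DNA as a partner of an E protein such as TCF3 (E2A) or TCF12 (HEB). LMO1 or LMO2, which have LIM domains and do not bind DNA themselves, bridge this pair to LDB1 and to a GATA factor. In T-ALL cells TAL1, GATA3, RUNX1 and MYB are known to occupy many of the same enhancers, including their own, and in Jurkat cells TAL1 itself is driven by an acquired enhancer that MYB binds.

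Promoter sequences of these genes are given first because LEF1 and the complex both act through short DNA motifs. The table of RefSeq promoters used here (GRCh38.p14) held 19 windows for 9 of the 10 genes, all but LMO2, and the 250 bases upstream of each start were searched on both strands. The 3 windows printed are those of LMO1, whose brightest probe set differed most between the groups, of LYL1, which lay lower in siLEF1 cells, and of TAL1, which differed little. Capitals mark the LEF/TCF core CTTTGA, read here on the opposite strand, in LMO1 (chr11:8268788-8269037, minus strand), and the GATA core GATAA, also on the opposite strand, in LYL1 (chr19:13102859-13103108, minus strand) and in the more upstream of 2 TAL1 windows (chr1:47232336-47232585, minus strand).
LMO1: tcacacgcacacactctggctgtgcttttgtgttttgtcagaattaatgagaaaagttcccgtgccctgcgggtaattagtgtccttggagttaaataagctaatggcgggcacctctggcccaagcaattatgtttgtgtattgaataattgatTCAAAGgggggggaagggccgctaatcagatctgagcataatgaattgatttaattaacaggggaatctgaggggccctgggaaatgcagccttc
LYL1: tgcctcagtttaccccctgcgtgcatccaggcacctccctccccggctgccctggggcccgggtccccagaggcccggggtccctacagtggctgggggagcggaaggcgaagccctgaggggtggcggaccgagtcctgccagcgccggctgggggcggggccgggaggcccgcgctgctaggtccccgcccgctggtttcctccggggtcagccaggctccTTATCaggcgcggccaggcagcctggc
TAL1: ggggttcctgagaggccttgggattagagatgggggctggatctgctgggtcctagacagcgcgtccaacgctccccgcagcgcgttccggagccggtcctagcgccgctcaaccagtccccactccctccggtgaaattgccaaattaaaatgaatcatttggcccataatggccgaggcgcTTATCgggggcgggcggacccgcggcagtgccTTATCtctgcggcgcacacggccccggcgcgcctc

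The LMO1 window held 1 LEF/TCF core, 95 to 90 bases before the start. Another was found in 1 of the 6 GATA3 windows, and the other 17 windows held none. Of all 35116 promoter windows of this length, 11.2% held this motif. The printed TAL1 window held 2 GATA cores and the LYL1 window held 1, as did 1 of the 6 GATA3 windows. The other windows of these genes held none, and this motif was present in 20.4% of all windows. The printed TAL1 window also had 1 E-box (CANNTG, in 61.8% of all). The printed LMO1 and LYL1 windows held no E-box, but each held 1 MYB core (AACNG, in 70.6% of all), which is not capitalized. No printed window held the RUNX core TGTGGT (11% of all windows). The TAL1 window that is not printed held 3 RUNX cores and 2 MYB cores. Further E-boxes lay in GATA3 and TCF12 windows, a RUNX core in a GATA3 window, and MYB cores in GATA3, MYB and TCF12 windows. None of the capitalized matches overlapped a match to the E-box, the RUNX core or the MYB core. A match is a description of the letters and not evidence of binding.

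LEF1, the siRNA target, was read by 3 probe sets, and both brighter ones lay lower in both siLEF1 arrays than in both siNT arrays. LEF1 signal on the log2 scale was 11.24 and 11.56 on the siLEF1 arrays at the brightest one, where the siNT arrays read 12.30 and 11.92. Its log2 difference was -0.71 (standard error 0.20, adjusted p = 0.191 from limma), which did not pass. The middle one differed by -0.93 (adjusted p = 0.141) and the dimmest by -0.19 with overlap. Array medians lay between 4.84 and 4.85. The 5' minus 3' signal of ACTB, a measure of RNA integrity and labeling, was -1.08 and -1.55 for siLEF1 and -1.80 and -1.95 for siNT. That of GAPDH was -0.34 and -0.32 for siLEF1 and -0.39 and -0.65 for siNT. Both were lowest in siNT replicate 2, and their part in the results below was not tested. The siNT arrays differed more from each other than the siLEF1 arrays did. Their median absolute difference was 0.329 against 0.13 over the 33 probe sets, and 0.206 against 0.147 over all probe sets. In bulk RNA, fewer cells expressing a gene and less RNA per cell cannot be told apart.

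None of the 33 probe sets was called, that is, passed both an adjusted p of 0.05 in limma and a 2-fold change. The smallest adjusted p was 0.106. Over all probe sets 0.183% were called lower and 0.0238% higher. At an unadjusted p under 0.05, 7 probe sets were higher (21.2% of 33, against 6.85% of all probe sets) and 2 were lower (6.06%, against 8.79%). Both siLEF1 arrays lay above both siNT arrays in 10 probe sets (30.3%, against 27.4% of all) and below them in 4 (12.1%, against 21.2%). The median log2 difference was 0.07, beside 0.04 over all probe sets. Several of the 33 read the same gene, so they are not independent, and 14 of them belong to TCF3.

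**Figure D1:**
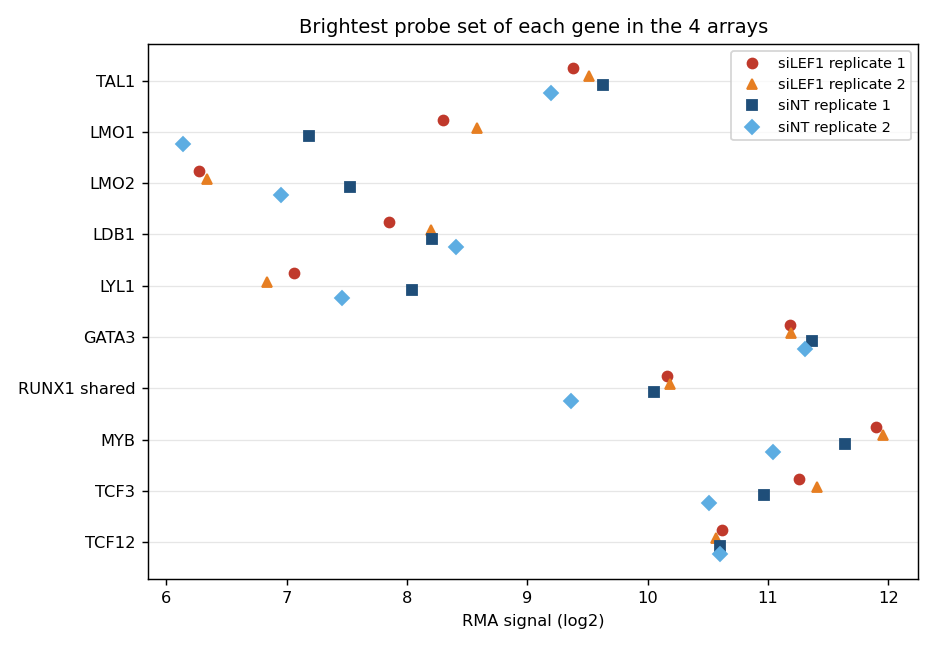
Log2 RMA signal (horizontal axis) in each of the 4 arrays for the brightest probe set of each gene (rows), to be compared within a row only. In LMO1, MYB, TCF3 and the shared RUNX1 probe set both siLEF1 arrays lie above both siNT arrays. In LMO2, LYL1, LDB1 and GATA3 they lie below, in LDB1 and GATA3 by little. The lowest array in TAL1, LMO1, MYB, TCF3 and the shared RUNX1 probe set is siNT replicate 2 (diamonds).

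TAL1, the bHLH factor that names the complex, showed no separation of the groups in any of its 4 probe sets. At its brightest probe set the siLEF1 arrays read 9.38 and 9.51 on the log2 scale, between the siNT readings of 9.63 and 9.20. Its log2 difference was 0.03 (95% confidence interval -0.44 to 0.49, adjusted p = 0.965 from limma). Against siNT replicate 1 alone it was -0.19 and against siNT replicate 2 alone 0.24. The other 3 TAL1 probe sets ran from -0.41 to 0.17.

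LYL1, a close bHLH relative of TAL1 with its own role in immature T-ALL, was read by 1 probe set. LYL1 signal was 7.06 and 6.84 (log2) after LEF1 siRNA and 8.04 and 7.46 with the control pool, with no overlap. The log2 difference was -0.80 (standard error 0.23, adjusted p = 0.19 from limma), a fold of 1.74 that did not pass. It was -1.09 against siNT replicate 1 and -0.51 against siNT replicate 2.

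TCF3 encodes the E proteins E12 and E47, the most common DNA-binding partners of TAL1. All 14 of its probe sets had values above 0, from 0.02 to 1.02 with a median of 0.18, but 8 of 14 when the arrays were centred on housekeeping genes, which moves every log2 difference by -0.13. Groups did not overlap in 6 of the 14 probe sets, the 6 brightest, all with siLEF1 higher, beside 27.4% of all probe sets. The brightest read 11.26 and 11.41 (log2) on the siLEF1 arrays against 10.97 and 10.51 for siNT. It differed by 0.59 (standard error 0.20, adjusted p = 0.241 from limma), by 0.36 without siNT replicate 2 and by 0.83 without siNT replicate 1. The probe set with the largest difference, 215260_s_at, read 8.39 and 8.48 (log2) after LEF1 siRNA against 7.75 and 7.07, with siNT replicate 2 lowest. Its log2 difference was 1.02 (standard error 0.24, adjusted p = 0.145 from limma), and 0.69 without siNT replicate 2. The other 4 bright ones differed by 0.51, 0.43, 0.36 and 0.31, and the 8 dimmer ones by 0.02 to 0.22. Probe sets ending in _x_at, 6 of the 14, can bind transcripts of other genes as well.

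TCF12, the E protein HEB, gave probe sets that disagreed. The brightest read 10.62 and 10.57 (log2) with LEF1 siRNA and 10.60 on both control arrays, a log2 difference of -0.01 (95% confidence interval -0.36 to 0.34). The next, 238041_at, read 7.37 and 7.41 against 6.70 and 5.88 in the siNT samples, which lay 0.82 apart. Its log2 difference of 1.10 (standard error 0.27, adjusted p = 0.158 from limma) did not pass, and was 0.69 without siNT replicate 2. Another probe set with no overlap, at 0.37, and the last one, at 0.11, had mean signals of 2.80 and 2.67, under the median probe set of the array, where the size of a difference is uncertain. Which TCF12 transcripts each of them reads was not examined.

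LMO1, a LIM-only bridging protein and T-cell oncogene, had the largest difference of the 33. Its only probe set, 206718_at, read 8.30 and 8.58 (log2) on the siLEF1 arrays where siNT gave 7.19 and 6.14. Both siLEF1 arrays were higher, and the siNT replicates lay 1.05 apart. The log2 difference was 1.77 (standard error 0.34, 95% confidence interval 0.96 to 2.59 before adjustment), a fold of 3.42 with an adjusted p of 0.106 from limma, so it did not pass. It was 1.25 against siNT replicate 1 and 2.30 against siNT replicate 2.

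LMO2, the LIM-only protein of normal blood stem cells and erythroid cells, lay on the other side. Its brighter probe set read 6.27 and 6.34 (log2) after LEF1 siRNA, below the siNT readings of 7.53 and 6.95. The log2 difference was -0.94 (standard error 0.22, adjusted p = 0.142 from limma), a fold of 1.92 that did not pass. The other LMO2 probe set, with a mean signal of 2.69, was dim and differed by -0.07. LMO1 and LMO2 therefore had values of opposite sign against each siNT array, 1.25 and -1.23 against replicate 1 and 2.30 and -0.65 against replicate 2, but neither passed.

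LDB1, which holds the LIM-only proteins and joins distant enhancers, was read by 2 probe sets with like values. The brighter read 7.85 and 8.20 (log2) for siLEF1 and 8.21 and 8.41 for siNT, so the groups came closer to each other than the siLEF1 arrays were. Its log2 difference was -0.28 (95% confidence interval -0.73 to 0.16, adjusted p = 0.52 from limma), -0.11 without siLEF1 replicate 1 and -0.46 without siLEF1 replicate 2. The dimmer one differed by -0.29, with overlap between the groups.

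GATA3, the GATA factor of T cells, had small differences in its 3 probe sets. The brightest read 11.18 and 11.19 (log2) with LEF1 siRNA, under 11.37 and 11.31 with the control pool. The log2 difference was -0.16 (95% confidence interval -0.50 to 0.19, adjusted p = 0.665 from limma), and those of the other probe sets were -0.12 and -0.06. All 3 values were below 0, and in the dimmer pair the groups overlapped.

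MYB, a transcription factor of immature blood cells and part of the TAL1 circuit, was read by 2 probe sets. The brighter gave 11.90 and 11.96 (log2) on the siLEF1 arrays, above 11.64 and 11.04 on the siNT arrays. The log2 difference was 0.59 (standard error 0.22, adjusted p = 0.281 from limma), 0.30 against siNT replicate 1 and 0.89 against siNT replicate 2. The dimmer MYB probe set had the opposite sign, -0.33, with overlap.

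The shared RUNX1 probe sets, which include the transcripts of this partner of TAL1 and GATA3, had values above 0 in 11 of 13, also after centring on housekeeping genes. Groups did not overlap in 10 of the 13, all with siLEF1 higher, beside 27.4% of all probe sets. The 13 were annotated to the same loci, so they are not independent. Those ending in _x_at can bind transcripts of other genes as well. The brightest read 10.16 and 10.19 (log2) for siLEF1, above 10.05 and 9.36 for siNT. Its log2 difference was 0.47 (standard error 0.24, adjusted p = 0.418 from limma). This value was 0.12 without siNT replicate 2 and 0.81 without siNT replicate 1. The largest value was 0.57, from log2 signals of 6.85 and 6.72 above 6.37 and 6.05 (adjusted p = 0.21 from limma). In both, siNT replicate 2 was the lowest array. Of the 13 probe sets 6 lay under the median signal.

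**Figure D2:**
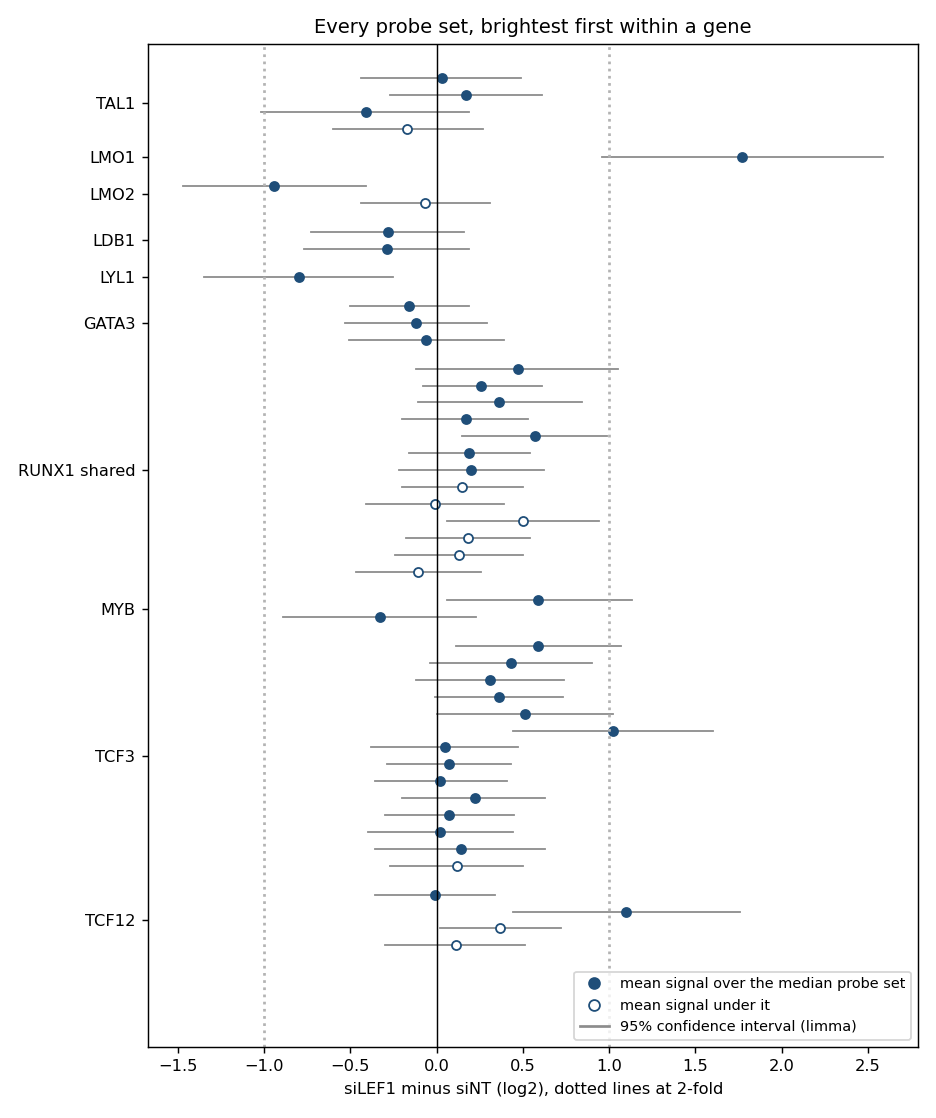
Log2 difference siLEF1 minus siNT (horizontal axis) of each of the 46 probe sets, with 95% confidence intervals from limma that are not adjusted for the number of tests. Open circles are probe sets dimmer than the median one. LMO1 stands highest at 1.77, LMO2 at -0.94 and LYL1 at -0.80 lie lowest, and the probe sets of TCF3 and TCF12 spread from about 0 to 1.02 and 1.10.

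The size of the higher values depended on the control array. In 25 of the 33 probe sets (75.8%) siNT replicate 2 lay under siNT replicate 1, against 48.6% of all probe sets, and so it did in 9 of the 10 probe sets whose groups did not overlap with siLEF1 higher. Without siNT replicate 1, LMO1 (2.30, adjusted p = 0.0394 from limma), the TCF3 probe set 215260_s_at (1.36, adjusted p = 0.0428) and the TCF12 probe set 238041_at (1.51, adjusted p = 0.0408) were called higher, against 1.09% of all probe sets, with the lone siNT array assumed to vary like the siLEF1 arrays. Without siNT replicate 2 or without either siLEF1 array none of the 33 was called, nor was any probe set of the array. In those 3 fits the numbers of all probe sets at an unadjusted p under 0.05 were 4112 lower and 2120 higher, 2185 lower and 1503 higher, and 2946 lower and 1677 higher.

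**Figure D3:**
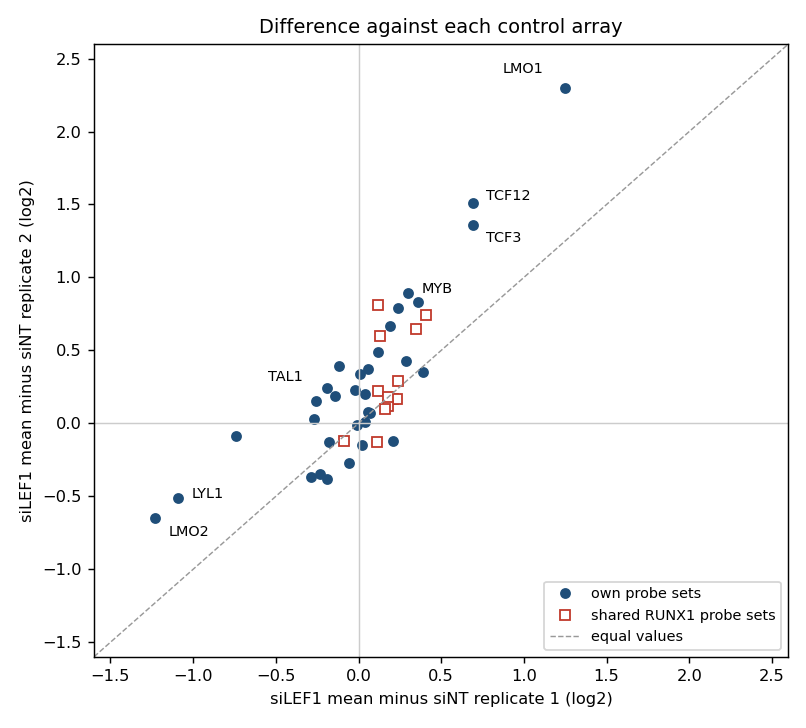
Mean of the siLEF1 arrays minus siNT replicate 1 (horizontal axis) and minus siNT replicate 2 (vertical axis), both on the log2 scale, for the 33 own (circles) and 13 shared RUNX1 (squares) probe sets. Points above the dashed line, such as LMO1 at 1.25 and 2.30, are those in which siNT replicate 2 was the lower control.

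Other genes tied to the complex were read from lists, each gene by its brightest probe set, and their median log2 differences are set beside 0.02 over 19775 genes. ID proteins bind E proteins and keep them off DNA. Of TCF4, the remaining E protein gene, and ID1 to ID4, 4 of 5 had values below 0 and none was called, with a median of -0.55, of -0.61 against siNT replicate 1 and of -0.55 against siNT replicate 2. ID1 read 8.43 and 8.28 (log2) for siLEF1 and 9.44 and 9.89 for siNT, a difference of -1.31 (adjusted p = 0.0767 from limma). ID2 differed by -1.06 (-0.61 and -1.51 against siNT replicates 1 and 2) and ID3 by -0.55, both without overlap. These 3 genes were lower at an unadjusted p under 0.05, as were 11.5% of all genes.

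Among LIM-only and LDB1 cofactors, the genes of SSBP proteins, which stabilize LDB1, had differences of 0.64 (SSBP2) and 0.62 (SSBP4), while LDB2, with a dim probe set, had -0.61. None of the 6 measured genes was called, and the list median was 0.28, which was 0.10 against siNT replicate 1 and 0.31 against siNT replicate 2. SSBP4 itself was 0.31 and 0.93 against them. RLIM, which marks LDB1 for degradation, had no probe set of its own.

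Relatives of the partner factors gave values on both sides of 0, with a median of 0.01 over 12 genes and none called, and of -0.08 and 0.17 against siNT replicates 1 and 2. GATA2, the GATA factor of stem and mast cells, read 6.54 and 6.57 (log2) for siLEF1 against 7.95 and 7.27 for siNT (difference -1.05, adjusted p = 0.139 from limma). The ETS factor genes ETV6 and ERG had differences of 1.03 and 1.28 (adjusted p = 0.141 and 0.139 from limma), ERG with a mean signal under the median probe set. Against siNT replicates 1 and 2 in turn, ETV6 gave 0.70 and 1.36 and ERG 0.93 and 1.64. Chromatin cofactors of the complex, such as CREBBP, KDM1A and the ETO family, had a median of 0.14 over 14 genes with none called. In that list KDM6A, a histone demethylase, differed by -0.94 (-0.59 against siNT replicate 1), CREBBP by -0.56 and KDM1A by 0.44.

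Oncogenic transcription factors of other T-ALL classes were mostly dim, with 3 of 8 measured genes above the median signal. MEIS1 was among the dim ones and differed by -1.12 (adjusted p = 0.105 from limma), and NKX2-1 and OLIG2 by 0.15 and -0.26. The list median was -0.03, and 0.07 and 0.02 against the single control arrays, and none was called. HOXA9 and HOXA10 had no probe set of their own.

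Genes known from other work to be activated by TAL1 or LMO complexes held the only called gene of these lists. ALDH1A2, which makes retinoic acid and is turned on by TAL1 and LMO proteins through GATA3, read 9.31 and 9.20 (log2) for siLEF1, well above 7.28 and 7.09 for siNT. It rose by 2.06 on the log2 scale (standard error 0.16, adjusted p = 0.0225 from limma), a fold of 4.18, and both control arrays lay close together. ALDH1A2 was already known to be higher in these data when the list was written, so its place there is no independent support. TSPAN7 differed by 0.63 and KIT, the stem cell factor receptor gene, by -1.41 with siNT signals of 8.25 and 6.88, and neither passed. Against siNT replicates 1 and 2 in turn, TSPAN7 gave 0.32 and 0.94 and KIT -2.09 and -0.72. The list median over 6 genes was 0.08, and 0.01 and 0.16 against siNT replicates 1 and 2. E protein targets of thymocytes had a median of 0.05 over 5 genes with none called, and in them CDKN1A differed by -0.56, CD4 by 0.15 and PTCRA by 0.11.

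**Figure D4:**
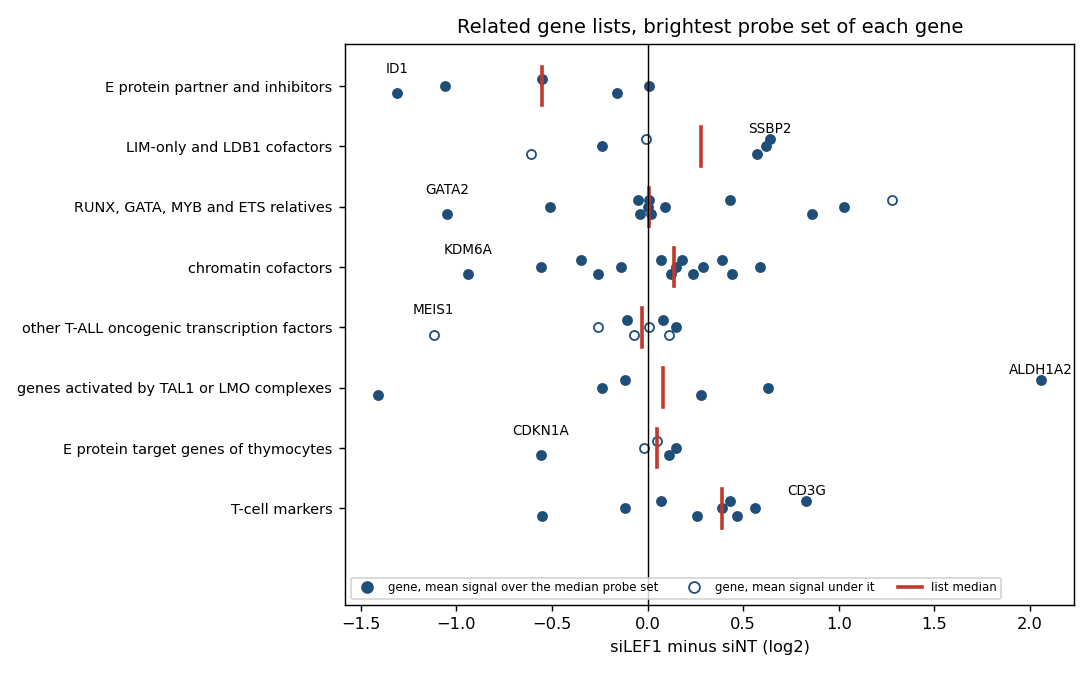
Log2 difference siLEF1 minus siNT (horizontal axis) of each gene in 8 lists (rows), with the list median as a bar and the gene of smallest p named. ALDH1A2 at 2.06 is the only called gene, and the ID genes pull the first list to a median of -0.55.

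T-cell markers were bright in all arrays, with all 9 genes above the median signal and list medians of 10.04 and 10.23 for siLEF1 and 9.81 and 9.16 for siNT. None was called and 7 of 9 had values above 0, with a median difference of 0.39, which was 0.10 against siNT replicate 1 and 0.59 against siNT replicate 2. CD3G had a difference of 0.83, CD7 one of 0.56 and PTPRC one of -0.55. Against siNT replicates 1 and 2 in turn, CD3G gave 0.68 and 0.97, CD7 0.29 and 0.83, and PTPRC -0.60 and -0.50. B-cell markers had a median signal of 4.83 to 4.99 by array and a median difference of 0.05, with CD79B at 0.15, PAX5 at 0.10 and CD79A at -0.10.

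Erythroid markers, among them targets of the LMO2 complex in red cell precursors, had list medians of 5.92 and 5.84 for siLEF1 and 6.64 and 6.15 for siNT. Of the 4 measured genes 3 lay lower in siLEF1 cells and none was called. The median difference was -0.49, which was -0.70 against siNT replicate 1 and -0.27 against siNT replicate 2. KLF1, under the median signal, differed by -1.46, HBB by -0.49 and ALAS2 by -0.49. EPOR, the brightest of the 4, differed by 0.13 with overlap. Myeloid markers had list medians of 4.03 and 4.28 for siLEF1 and 4.42 and 4.83 for siNT, and values below 0 in 3 of 4 genes, with MPO at 0.10. Their median difference was -0.51, but -0.02 against siNT replicate 1 and -0.34 against siNT replicate 2. LYZ differed by -0.94, CSF1R by -0.14 and CD14 by -0.88, the last by -0.11 and -1.66 against siNT replicates 1 and 2. Epithelial markers had a median difference of -0.12, with KRT18 at -0.60, CDH1 at -0.16 and EPCAM at 0.13. None of the genes in these lists was called, and their part in the LMO2 and LYL1 values was not tested.

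The 5 genes whose centred log2 signals over the 4 arrays lay nearest to those of LMO1, among 17177 probe sets with 1 symbol and a mean log2 signal of at least 6, were ACY3, DNTT, MACROH2A1, ACSL6 and TFDP2. Their Euclidean distances from LMO1 were 0.13, 0.16, 0.33, 0.37 and 0.39 on the log2 scale. DNTT, which encodes the terminal transferase of immature lymphocytes, read 7.82 and 7.86 (log2) for siLEF1 and 6.58 and 5.57 for siNT. Log2 differences of the 5 ran from 1.39 to 1.81 and none passed, with a smallest adjusted p of 0.0841 from limma for ACY3. Each had its lowest signal in siNT replicate 2, as LMO1 did. The genes were picked by nearness to LMO1, so the like differences and the shared lowest array follow from that choice. They are no separate result. The likeness rests on 4 arrays and is given as a description.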

How the data were processed

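The authors labeled total RNA with a 3' IVT kit, hybridized it to HG-U133 Plus 2.0 arrays and extracted the signals in Affymetrix Expression Console (1.1 in the submitters' notes). The deposited values are log2 signals after RMA by the authors, which corrects background, makes the array distributions equal and summarizes each probe set. No genome build applies to them, and raw probe signals were not used here.

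Symbols came from the platform annotation, updated by Entrez number. After 62 control probe sets were removed, siLEF1 minus siNT was fitted for 54613 probe sets with limma 3.58.1 in R 4.3.3 (lmFit, eBayes, 2-sided, 2 residual degrees of freedom plus 4.3 from moderation), with Benjamini-Hochberg adjustment over all of them and no filter. The call thresholds are those of the study's methods, which compare 3 groups where 2 were compared here. The fit was checked on simulated data with independent noise and planted shifts, only for the size and sign of those shifts. No limit was set on false calls, so the check says nothing about their number in these arrays. Precision is limited by the number of arrays.

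Named genes are all probe sets of the 10 genes, LEF1, up to 3 genes of smallest p in each list, and the 5 genes nearest to the most changed member. EPOR and MPO are named as well, as the erythroid and the myeloid marker with a value above 0. Members and lists were chosen with earlier results of these data known. Lists covered E protein partners and inhibitors, LIM cofactors, factor relatives, chromatin cofactors, other T-ALL factors, TAL1 and E protein targets, and markers of 5 lineages. Alternatives were a signal filter at 6, trended or no moderation, a replicate block, other centring, removal of cross-reacting probe sets, 1 probe set per gene, a 1.5-fold or no fold threshold, and leaving out each array.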

Additional observations from a re-analysis of the deposited data

How the results depend on the processing

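No member probe set was called lower under any alternative run. The count called higher was 0 and became 3 without siNT replicate 1 (0 to 3 over the 4 fits that leave out an array). The labels do not say whether same-numbered arrays were prepared together. Deviations of same-numbered arrays correlated at -0.155, but 2 pairs are too few to settle whether they were paired. With the replicate number as a block, 1 member probe set (LMO1, adjusted p = 0.024 from limma) was called higher, and over all probe sets 977 were lower and 120 higher against 100 and 13. With the crossed pairing, an alternative chosen after seeing the data, the counts were 1 member called higher and 763 lower and 159 higher over all.

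At an unadjusted p under 0.05 the 7 higher member probe sets became 1 without moderation, 4 with housekeeping centring, 4 without _x_at and _s_at probe sets, 3 with 1 probe set per gene and 3 to 9 with an array left out, and the 2 lower ones became 1, 2, 0, 2 and 2 to 3. Over all probe sets the higher ones numbered 3739 as reported, 2046 without moderation and 1767 with housekeeping centring. They numbered 2487 of 39114 without _x_at and _s_at probe sets and 1515 of 19775 with 1 probe set per gene. The lower ones went from 4799 to 2347, 7255, 3075 and 2397. The _x_at and _s_at alternative removes the brighter LMO2 probe set, the LYL1 probe set and TCF3 209153_s_at, 209152_s_at and 215260_s_at. With 1 probe set per gene, others of the same gene are removed. For the other changes the cause was not tested. Counting the shared RUNX1 probe sets gave 9 higher, and leaving out dim ones 6, both chosen after seeing the data. Of the brightest probe sets, LMO1, LMO2, LYL1, LDB1, GATA3, MYB, TCF3 and the shared RUNX1 one kept their sign under every alternative in which they were tested. TAL1 went from 0.03 to -0.10 with housekeeping centring and ran from -0.19 to 0.24 with an array left out, and TCF12 from -0.03 to 0.02. Housekeeping centring moved the median of all probe sets from 0.04 to -0.09. With 2 arrays a group the standard errors of the 33 ran from 0.14 to 0.34, and probe sets near background have uncertain sizes.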
